A study of Mus musculus with 4 samples.

Results

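The 9 genes described here encode enzymes of mitochondrial beta-oxidation: Cpt2, Acadvl, Acadl, Acadm, Acads, Hadha, Hadhb, Hadh and Etfdh. They were taken by symbol from a table of 24138 gene rows, in which each had 1 row, and all 9 were among the 10541 genes whose mean reached 1 FPKM (fragments per kilobase of transcript per M mapped fragments, M being the usual mega prefix), called expressed below. Total RNA was from 4 livers of male mice (strain C57BL/6J, age 18 weeks), 1 library each. All 4 animals were given the FAT-MASH diet, a model diet for steatohepatitis with metabolic dysfunction (MASH), and RvD1 (resolvin D1), a lipid mediator of the resolution of inflammation, so these livers form a single group and share both diet and treatment. No diet-only, vehicle-treated or healthy livers were analysed here, so the values are levels and their spread between 4 animals, and no effect of the diet or of RvD1 can be read from them. The livers are named 1 to 4 as in the labels.

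Beta-oxidation shortens a fatty acid from its carboxyl end in repeated rounds of dehydrogenation, hydration, a further dehydrogenation and thiolytic cleavage, and each round releases acetyl-CoA. In liver the acetyl-CoA feeds the citric acid cycle and, in fasting, the synthesis of ketone bodies for other organs. Electrons of the first step leave through the electron transfer flavoprotein to ubiquinone, and those of the third step through NADH. Many of these genes are known targets of the nuclear receptor PPAR alpha, and inherited loss of single enzymes causes metabolic crises on fasting.

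The genomic sequences shown first are those upstream of the members on which the results turn. Acadm and Acadl, for medium and long chains, were the members that varied most over the 4 livers, an order that rested on liver 3, and kept a steady ratio to each other, whereas Acadvl, for very long chains, varied little. For each, the 250 bases before the RefSeq start site are printed from the strand of the gene (GRCm38.p6): chr3:153944644-153944893 for Acadm, chr1:66863310-66863559 for Acadl and chr11:70015429-70015678 for Acadvl, all on the minus strand. Capitals mark the nuclear receptor core element AGGTCA (or its complement TGACCT) and the GC box GGGCGG (or CCGCCC), searched on both strands, with no overlap between marked sites.
Acadm: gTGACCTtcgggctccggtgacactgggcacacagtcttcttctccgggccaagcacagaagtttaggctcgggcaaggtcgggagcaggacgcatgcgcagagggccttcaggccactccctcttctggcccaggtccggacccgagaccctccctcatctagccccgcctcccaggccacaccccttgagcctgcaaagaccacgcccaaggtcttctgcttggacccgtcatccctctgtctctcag
Acadl: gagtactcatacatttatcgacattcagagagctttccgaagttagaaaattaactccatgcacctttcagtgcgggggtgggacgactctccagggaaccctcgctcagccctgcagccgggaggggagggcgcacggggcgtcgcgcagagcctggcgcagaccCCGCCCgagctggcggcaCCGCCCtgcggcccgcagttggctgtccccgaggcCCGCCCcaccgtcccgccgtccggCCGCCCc
Acadvl: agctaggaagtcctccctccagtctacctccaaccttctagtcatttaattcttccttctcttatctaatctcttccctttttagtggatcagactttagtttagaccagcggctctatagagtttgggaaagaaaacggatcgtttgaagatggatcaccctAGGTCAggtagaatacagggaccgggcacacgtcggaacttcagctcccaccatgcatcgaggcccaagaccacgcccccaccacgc

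The stretch from Acadl held 4 GC boxes and no core element, while those from Acadm and Acadvl each held 1 core element and no GC box. Of 32851 RefSeq promoter windows of the same length, 14.02% held AGGTCA and 32.7% held GGGCGG. Among the 9 members a core element was found in 2 (Acadm and Acadvl) and a GC box in 6 (Cpt2, Acadl, Acads, Hadha, Hadhb and Hadh). The windows of Hadha and Hadhb share 228 bases, so the GC box of Hadha is also counted for Hadhb. CCAAT was found in 2 members, Hadh and Etfdh, and in 33.8% of all windows. TATAAA was found in 0 of the 9 and in 12.4% of all windows. A pair of AGGTCA copies in the same direction with a single base between them, the arrangement named DR1, was found in 0 of the 9 and in 0.0335% of all windows. The GC content of the members' windows ranged from 49.6% for Acadvl to 68% for Acadl, with a median of 58.8% against 52.4% over all windows. The ratio of observed to expected CpG ranged from 0.362 for Hadh to 0.871 for Acadl, with a median of 0.615 against 0.373. These matches describe the letters of the windows only.

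Hadha and Hadhb, which encode the alpha and beta subunits of the mitochondrial trifunctional protein, lie head to head on chromosome 5. The RefSeq start site of Hadha on the minus strand is at 30154980 and that of Hadhb on the plus strand at 30155253, which leaves 272 bases between them. The part of that interval that lies outside every annotated exon of GENCODE vM21 is chr5:30155163-30155247, 85 bases with a GC content of 69.4%. It is printed from the plus strand, the strand of Hadhb, with GC boxes in capitals, because a single intergenic stretch serves as the upstream region of both subunit genes.
Hadhb and Hadha: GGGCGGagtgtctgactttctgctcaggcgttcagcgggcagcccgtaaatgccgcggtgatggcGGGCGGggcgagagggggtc

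The total of all deposited values ranged from 516816 to 570681 FPKM per liver, with the highest total in liver 4. A rough depth of about 18.8 to 20.1 M fragments came from low values of genes with a single transcript. The fixed window of values used for it bounds the result, so the true depth may differ. If that depth holds, each member rested on about 3167 to 9977 fragments per liver, a counting error of 1.00% to 1.78%. The 9 genes together held 0.259%, 0.244%, 0.228% and 0.267% of the total in livers 1 to 4.

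Cpt2 (XLOC_015220, chromosome 4, 107903982 to 107923589, minus strand) encodes carnitine palmitoyltransferase 2, which reforms acyl-CoA from acylcarnitine at the inner face of the inner mitochondrial membrane. Its level was 79.8, 79.4, 84.1 and 89.4 FPKM in livers 1 to 4, with a mean of 83.2 ± 4.64 FPKM (SD, n = 4), the lowest mean of the 9 genes. The highest liver exceeded the lowest 1.13-fold.

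The 4 acyl-CoA dehydrogenases catalyse the first step of each round and differ in the chain length they prefer. Acadvl (XLOC_003704, chromosome 11, 70010183 to 70015428, minus strand), for very long chains, had 171, 166, 163 and 185 FPKM in livers 1 to 4, with a mean of 171 ± 10.04 FPKM (SD, n = 4). Acadl (XLOC_000847, chromosome 1, 66830839 to 66863309, minus strand), for long chains, had 166, 149.5, 121 and 195 FPKM, with a mean of 158 ± 30.8 FPKM (SD, n = 4). Acadm (XLOC_014190, chromosome 3, 153922353 to 153944643, minus strand), for medium chains, had 217, 198, 149.8 and 246 FPKM, with a mean of 203 ± 40.6 FPKM (SD, n = 4). For both Acadl and Acadm liver 3 was lowest and liver 4 highest, with a 1.61-fold and a 1.64-fold range. Acads (XLOC_016758, chromosome 5, 115102922 to 115119346, minus strand), for short chains, had 102, 89.6, 98.9 and 99.1 FPKM, with a mean of 97.5 ± 5.48 FPKM (SD, n = 4). As deposited, Acads was in contrast to the other dehydrogenases highest in liver 1 and lowest in liver 2, with a 1.14-fold range. With each liver rescaled to the same total, Acadvl was also highest in liver 1.

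The trifunctional protein carries out the last 3 steps of a round on long chains. Hadha (XLOC_016427, chromosome 5, 30103584 to 30154980, minus strand), for the subunit with hydratase and dehydrogenase activity, had 137, 128, 122 and 150.2 FPKM in livers 1 to 4, with a mean of 134 ± 12.3 FPKM (SD, n = 4). Hadhb (XLOC_015734, chromosome 5, 30155253 to 30184593, plus strand), for the thiolase subunit, had 85.5, 85.7, 80.7 and 109.7 FPKM, with a mean of 90.4 ± 13.1 FPKM (SD, n = 4). Hadhb was thus set apart by liver 4, while livers 1 to 3 lay within a few FPKM of each other. Hadh (XLOC_014121, chromosome 3, 131233420 to 131272101, minus strand), the matrix 3-hydroxyacyl-CoA dehydrogenase for shorter chains, had 254, 251, 239 and 285 FPKM, with a mean of 257 ± 19.6 FPKM (SD, n = 4), the highest mean of the 9.

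Etfdh (XLOC_013797, chromosome 3, 79603788 to 79628767, minus strand) encodes the oxidoreductase that passes electrons from the electron transfer flavoprotein to ubiquinone. It had 147, 125, 119 and 163 FPKM in livers 1 to 4, with a mean of 138 ± 20.1 FPKM (SD, n = 4). Livers 1 and 4 were both above livers 2 and 3.

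**Figure D1:**
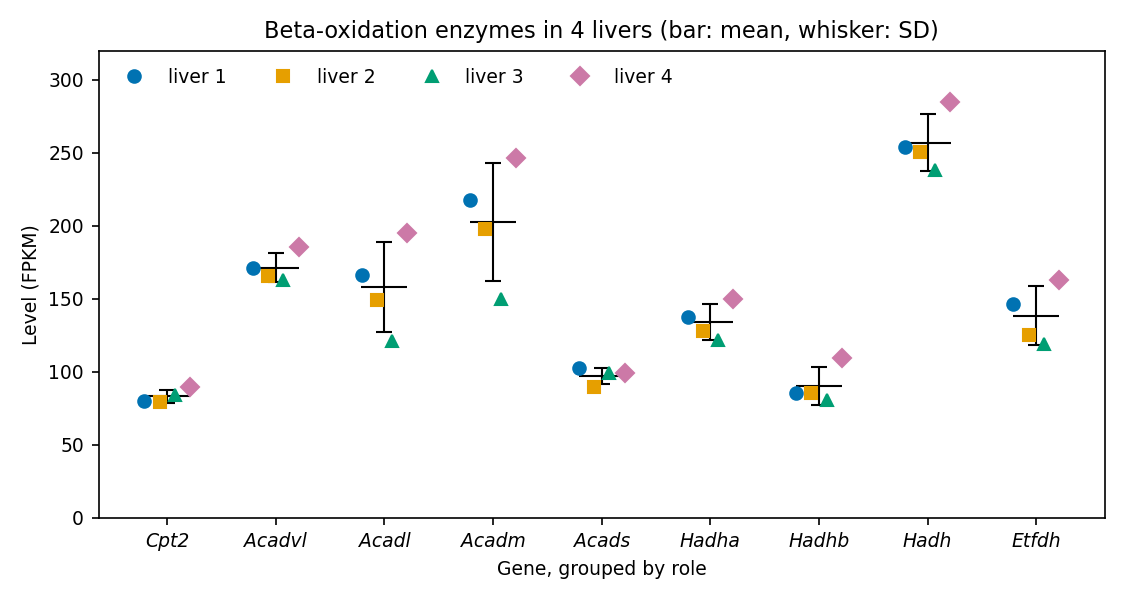
Level in FPKM (vertical axis, linear from 0) of each of the 9 genes (horizontal axis, grouped by role) in livers 1 to 4, with the mean (bar) and SD (whisker). Acadm and Acadl spread widest, with liver 3 lowest and liver 4 highest, and Cpt2, Acadvl and Acads spread least.

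Some deposited spans cover more than the named gene. The span of Hadha extends past the gene's end in GENCODE vM21, at 30118304, and covers Garem2 and 3110082J24Rik. That of Acads covers the processed pseudogene Rpl37rt, that of Acadl the pseudogene Gm15793, and that of Acadvl overlaps Dvl2 on the opposite strand. RefSeq also lists a pseudogene of Hadhb, Hadhb-ps. Whether reads of these neighbours or copies entered the members' values is not given in the sources used here.

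By mean level the order was Hadh, Acadm, Acadvl, Acadl, Etfdh, Hadha, Acads, Hadhb and Cpt2. All 9 lay in the upper part of expressed genes, from the 91.3rd percentile for Cpt2 (rank 913) to the 96.8th for Hadh (rank 335). Only 1 step in this order separated genes whose ranges over the livers did not overlap, that from Hadha (lowest 122 FPKM) down to Acads (highest 102 FPKM). Hadh exceeded Acadm in all 4 livers, by 1.16-fold to 1.59-fold, and Acadl exceeded Etfdh in all 4, by 1.02-fold to 1.20-fold. The other 5 neighbouring pairs changed places in at least 1 liver. Acadm was above Acadvl in livers 1, 2 and 4 and below it in liver 3, and Acadl was above Acadvl in liver 4 only. Etfdh was above Hadha in 2 of 4 livers, and their mean difference on the log2 scale was 0.04 ± 0.08 (SD, n = 4). Acads was above Hadhb in 3 of 4 livers, and Hadhb above Cpt2 in 3 of 4. With 4 livers an exact sign-flip test cannot reach the usual two-sided threshold, so none was run.

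The spread between animals, the SD of log2(FPKM + 1), separated the members into wide and narrow ones. It was 0.30 for Acadm, 0.29 for Acadl, 0.21 for Etfdh and 0.20 for Hadhb, above the median of 0.16 over all expressed genes. Hadha had 0.13, Hadh 0.11, and Acadvl, Acads and Cpt2 each 0.08, which is the 10th percentile of expressed genes. The median over the 9 genes was 0.13, and over the 1407 genes of at least 50 FPKM it was 0.16. An SD of at least 0.25 was found for 2 of the 9, Acadm and Acadl, a share near the 18.3% of expressed genes. Acadl was below this bound, at 0.23, both with each liver rescaled to the same total and without liver 4. The SDs of Acadm and Acadl rested in large part on liver 3, and without it they were 0.16 and 0.19, when Hadhb, at 0.20, had the widest spread and Acadm lay below Etfdh (0.19). The SD of Hadhb rested on liver 4 and was 0.05 without it. Leaving out liver 4 also lowered the SDs of Acadvl to 0.04, Hadh to 0.05, Cpt2 to 0.04 and Hadha to 0.08, and leaving out liver 2 lowered that of Acads to 0.03. With each liver rescaled to the same total the SDs were 0.26 for Acadm, 0.23 for Acadl, 0.15 for Etfdh, 0.13 for Hadhb, 0.09 for Acads, 0.08 for Hadha, 0.05 for Hadh, 0.05 for Cpt2 and 0.02 for Acadvl. With each liver rescaled to the same total, the number of members above the median SD of expressed genes was 2 in place of 4.

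**Figure D2:**
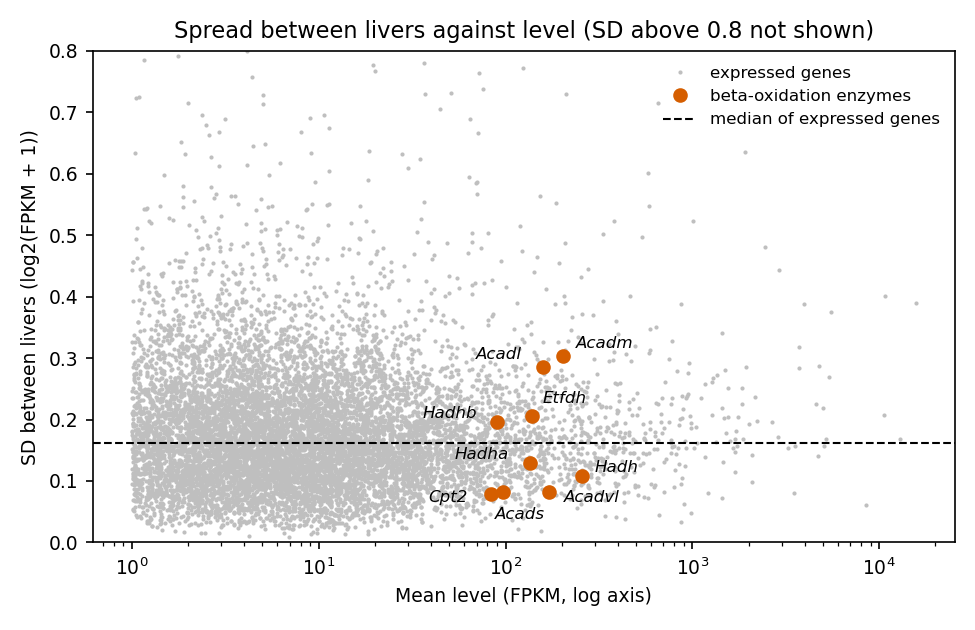
SD between the 4 livers of log2(FPKM + 1) (vertical axis) against mean FPKM (horizontal log axis) for expressed genes (grey) and the 9 enzymes (orange), with the median SD of expressed genes as a dashed line; SDs above 0.8 lie outside the plot. Acadm, Acadl, Etfdh and Hadhb lie above the line, and the other 5 below it.

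For each gene the most extreme liver was compared with its nearest neighbour by Dixon's ratio, the gap divided by the whole range. It passed the 95% critical value for 4 samples for 0 of the 9 genes and for 5.46% of expressed genes. The closest was Hadhb in liver 4, at 0.803, followed by Acads in liver 2, at 0.747.

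As deposited, 8 of the 9 genes, all but Acads, had their highest value in liver 4. The same liver was highest for 33.3% of expressed genes and for 53.0% of genes of at least 50 FPKM, so liver 4 was also high for abundant genes in general. Liver 3 was lowest for 7 of the 9, all but Cpt2 and Acads, against 31.4% of expressed genes and 37.8% of genes of at least 50 FPKM. With each liver rescaled to the same total, liver 4 was highest for 6 members (Acadl, Acadm, Hadha, Hadhb, Hadh and Etfdh) against 23.4% of genes of at least 50 FPKM, and liver 3 was lowest for the same number as before, 7, against 32.7%. Median-ratio scaling gave 8 members highest in liver 4 against 43.5%, and 7 lowest in liver 3 against 37.0%. Members are not independent of each other, and these counts describe 4 livers.

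Deviations from each gene's own mean on the log2(FPKM + 1) scale give the size of these differences. In liver 4 all 9 members lay above their mean, as did 60.8% of expressed genes and 84.2% of genes of at least 50 FPKM, so this count was near the share for abundant genes. The median over members was 0.16, while it was 0.04 over expressed genes and 0.12 over genes of at least 50 FPKM. The largest were 0.32 for Acadl, 0.30 for Acadm, 0.29 for Hadhb and 0.24 for Etfdh, and the smallest was 0.03 for Acads. In liver 3 the median over members was -0.13, against -0.01 over expressed genes and -0.06 over genes of at least 50 FPKM, with Acadm at -0.41 and Acadl at -0.36, while Cpt2 and Acads were at 0.02 each. Only these 2 members lay above their mean in liver 3, where 47.0% of expressed genes and 36.2% of genes of at least 50 FPKM did. The median in liver 3 was -0.06 when liver 4 was left out of the means. Liver 1 had a median of 0.04 (-0.02 without liver 3) with 6 members above their mean, against 47.2% of expressed genes and 39.4% of genes of at least 50 FPKM. Liver 2 had a median of -0.06 with 0 members above their mean, against 45.1% and 40.4%. Without liver 4 the median of liver 2 was -0.0076, and its difference from expressed genes was -0.0010. Without liver 3 these were -0.111 and -0.088. Rescaling to the same total shifted the median of all expressed genes in liver 4 by -0.09 and left the members at a median of 0.07 there, with 8 of 9 above their mean, against 38.1% of expressed genes and 58.0% of genes of at least 50 FPKM, and Acads at -0.07. In liver 3 the rescaled median was -0.09.

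**Figure D3:**
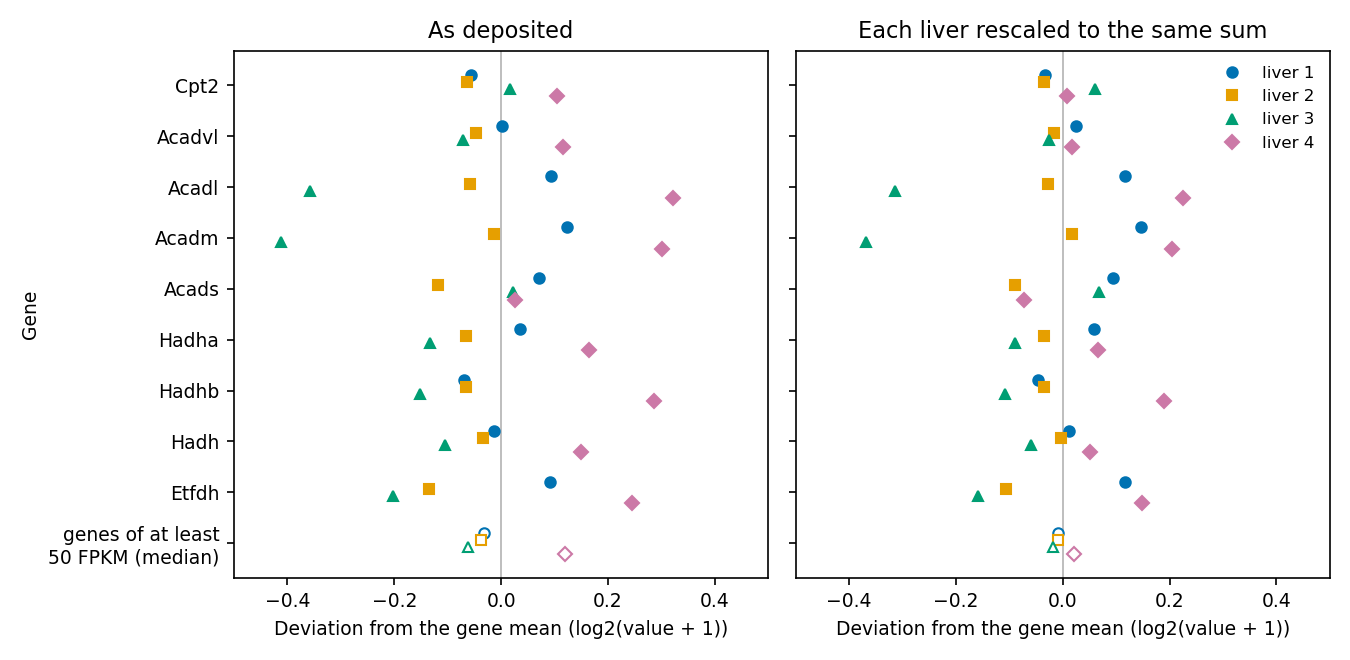
Deviation of log2(value + 1) from the mean over livers (horizontal axis) for each enzyme (rows) in livers 1 to 4, as deposited (left) and with each liver rescaled to the same sum (right); open symbols are the medians over genes of at least 50 FPKM. Acadm and Acadl in liver 3 lie farthest to the left in both panels, at -0.41 and -0.36 as deposited.

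Ratios between genes within a liver do not depend on any scaling between livers, and among the acyl-CoA dehydrogenases they separated a steady pair from shifting ones. Acadm to Acadl was 1.31, 1.32, 1.24 and 1.26 in livers 1 to 4, with a mean of 1.28 ± 0.0402 (SD, n = 4). Acadm to Acadvl was 1.27, 1.19, 0.920 and 1.33, with a mean of 1.18 ± 0.181 (SD, n = 4), so that the order of these genes was inverted in liver 3. Acads to Acadvl lay between 0.535 and 0.607. As a share of the summed FPKM of the 4 dehydrogenases, Acadm took 33.1%, 32.8%, 28.1% and 33.9% in livers 1 to 4 and Acadl 25.3%, 24.8%, 22.7% and 26.9%. Acadvl took 26.1%, 27.5%, 30.6% and 25.6%, and Acads 15.6%, 14.9%, 18.6% and 13.7%. Liver 3 thus had the smallest shares of the medium-chain and long-chain transcripts and the largest shares of the other two.

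Both subunits of the trifunctional protein are needed in equal number in the complex. The ratio of Hadha to Hadhb transcripts was 1.61, 1.49, 1.51 and 1.37 in livers 1 to 4, with a mean of 1.495 ± 0.0973 (SD, n = 4), and it was lowest in liver 4. Over all 36 pairs of members, the SD of the log2 ratio over livers had a median of 0.13 and ranged from 0.03 for Hadh and Acadvl to 0.31 for Acadm and Acads. Over all 982101 pairs of genes of at least 50 FPKM and above 0 in each liver the median was 0.21. The steadiest pairs were Hadh and Acadvl (0.03), Hadh and Hadha (0.04) and Acadm and Acadl (0.05), and 1.22% of all pairs were as steady as the last of these. Hadha and Hadhb, at 0.09, were matched or bettered by 9.32% of all pairs. Pairs share genes and livers, so these shares are descriptions.

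**Figure D4:**
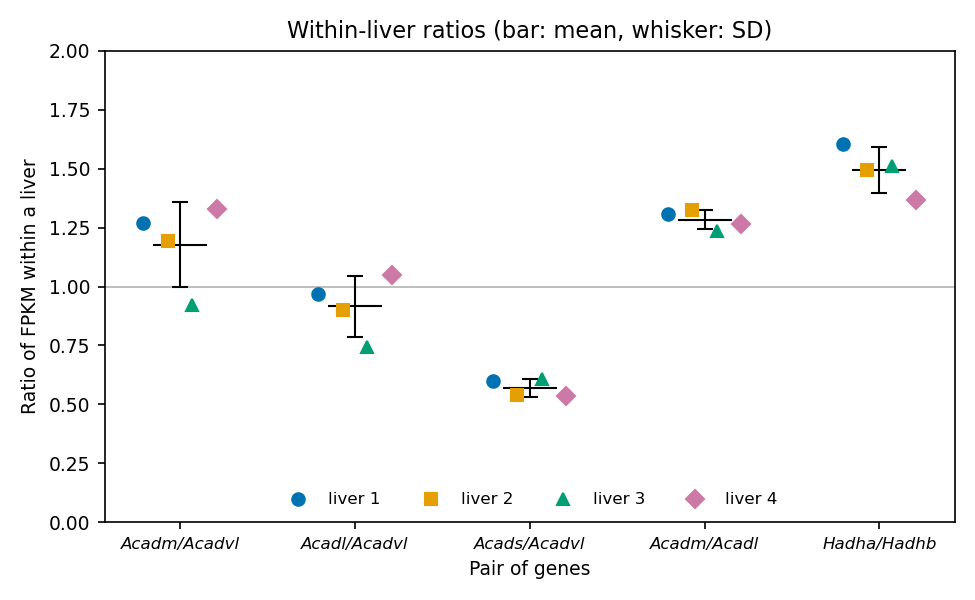
Ratio of FPKM of 2 genes within the same liver (vertical axis, linear from 0) for 5 pairs (horizontal axis) in livers 1 to 4, with the mean (bar) and SD (whisker). Acadm to Acadl stays between 1.24 and 1.32, while Acadm to Acadvl is 0.920 in liver 3 and at least 1.19 in the other livers.

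The enzymes that work beside the members were read from lists of the surrounding pathway. Cpt1a, the carnitine palmitoyltransferase of the outer membrane and the regulated entry step, had a mean of 224 ± 29.2 FPKM (SD, n = 4) and exceeded Cpt2 by 2.48-fold to 2.95-fold. Slc25a20, the carnitine-acylcarnitine carrier between these enzymes, had 79.95 ± 8.40 FPKM (SD, n = 4), and its ratio to Cpt2 lay between 0.880 and 1.03. All 4 expressed genes of the carnitine shuttle, of 6 listed, were highest in liver 4, against 33.3% of expressed genes and 53.0% of genes of at least 50 FPKM. Acaa2, the matrix thiolase that completes the rounds the trifunctional protein does not, had 632 ± 80.8 FPKM (SD, n = 4), and exceeded Hadhb 6.42-fold to 7.45-fold. Echs1, the short-chain enoyl-CoA hydratase, had 169 ± 19.3 FPKM (SD, n = 4), and Ech1, an isomerase for unsaturated chains, 243 ± 34.3 FPKM (SD, n = 4). All 7 genes of the other matrix steps were highest in liver 4, with a median deviation of 0.22 there, and 2 of the 7 were lowest in liver 3, near the background of 31.4% of expressed genes and 37.8% of genes of at least 50 FPKM.

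The flavoprotein that delivers electrons to Etfdh has subunits encoded by Etfa and Etfb. Livers 1 to 4 had 221, 212, 178 and 255 FPKM of Etfa, lowest in liver 3 like Acadm and Acadl. They had 349, 297, 336 and 350.2 FPKM of Etfb, lowest in liver 2. The ratio of Etfa to Etfb was therefore 0.633, 0.714, 0.528 and 0.727, whereas that of Etfa to Etfdh lay between 1.49 and 1.69. Thus the mRNA of the alpha subunit kept closer to Etfdh, with an SD of the log2 ratio of 0.08, than to Etfb, at 0.21; this difference was not tested.

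Ketone body synthesis uses the acetyl-CoA of these rounds. All 6 genes of the ketone list lay above their mean in liver 4. So did 60.8% of expressed genes and 84.2% of genes of at least 50 FPKM. In liver 3, 1 of the 6 lay above its mean, against 47.0% and 36.2%. Of the 14 genes of peroxisomal beta-oxidation, the parallel pathway for very long and branched chains, 9 were highest in liver 4. The shares there were 33.3% of expressed genes and 53.0% of genes of at least 50 FPKM. In liver 3, 6 of the 14 were lowest, against 31.4% and near the 37.8% of these backgrounds. Scp2 (1875 ± 222 FPKM) and Acaa1b (1504 ± 285 FPKM) were the most abundant of the peroxisomal genes (each SD, n = 4).

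Among other dehydrogenases of acyl-CoA substrates, several of which act on amino acid breakdown products, Gcdh had 264 ± 21.5 FPKM, Acad11 135 ± 18.8 FPKM and Ivd 94.8 ± 17.8 FPKM (each SD, n = 4). Their list of 8 had a median deviation of 0.03 in liver 3, where that of the 4 member dehydrogenases was -0.21, and of 0.14 in liver 4. Fatty acid activation was led by Slc27a2 (889 ± 140.4 FPKM), Slc27a5 (486 ± 48.9 FPKM) and Acsl1 (459 ± 67.9 FPKM; each SD, n = 4), and 6 of its 9 expressed genes were highest in liver 4, against 33.3% of expressed genes and 53.0% of genes of at least 50 FPKM. In the propionyl-CoA list, 5 of 6 expressed genes were highest in liver 4, against 33.3% of expressed genes and 53.0% of genes of at least 50 FPKM, and 4 of 6 were lowest in liver 3, against 31.4% and 37.8%. Its most abundant genes Pccb, Mcee and Mut were among both counts, while Mmab was highest in liver 1 and lowest in liver 2. The acyl-CoA thioesterase list had the lowest median in liver 3 (-0.26) and the highest in liver 4 (0.28) among these lists.

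Among the regulators, Ppara, the nuclear receptor that drives many of these genes, had 61.9, 55.7, 58.1 and 66.8 FPKM in livers 1 to 4, with an SD of 0.11 on the log2 scale. Its partner Rxra had 91.3, 92.1, 112 and 109.0 FPKM, and Hnf4a, a transcription factor of hepatocyte identity, 93.9, 104, 156 and 118 FPKM. Creb3l3, a hepatic regulator of the fasting response, had 127, 109, 138 and 141 FPKM. Liver 3, where 7 of the 9 enzymes were lowest, was the highest liver for Rxra and Hnf4a, while liver 4, where 8 of the 9 were highest, was the highest for Ppara and Creb3l3. Of the 17 regulators, 12 lay above their mean in liver 3, against 47.0% of expressed genes and 36.2% of genes of at least 50 FPKM, with a median deviation of 0.10. Of the 17, 3 were lowest there, against 31.4% of expressed genes and 37.8% of genes of at least 50 FPKM.

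A list of 16 genes of general mitochondrial function served as a reference for the content of mitochondria, led by Sdhb (233 ± 14.7 FPKM), Uqcrc1 (232 ± 31.3 FPKM) and Sdha (222 ± 20.9 FPKM; each SD, n = 4). All 16 lay above their mean in liver 4, against 60.8% of expressed genes and 84.2% of genes of at least 50 FPKM. Their median there was 0.16, the same as for the 9 enzymes to 2 decimals. In liver 3 the reference had a median of -0.08 with 5 of 16 lowest there, and the enzymes -0.13 with 7 of 9 lowest. The count of the reference was near the 31.4% of expressed genes and the 37.8% of genes of at least 50 FPKM. Of the 11 lists around the members, 10 had a higher median than expressed genes in liver 4, the exception being the regulators (0.03 against 0.04). Lists were described by counts and medians only, and none is shown to differ from another.

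**Figure D5:**
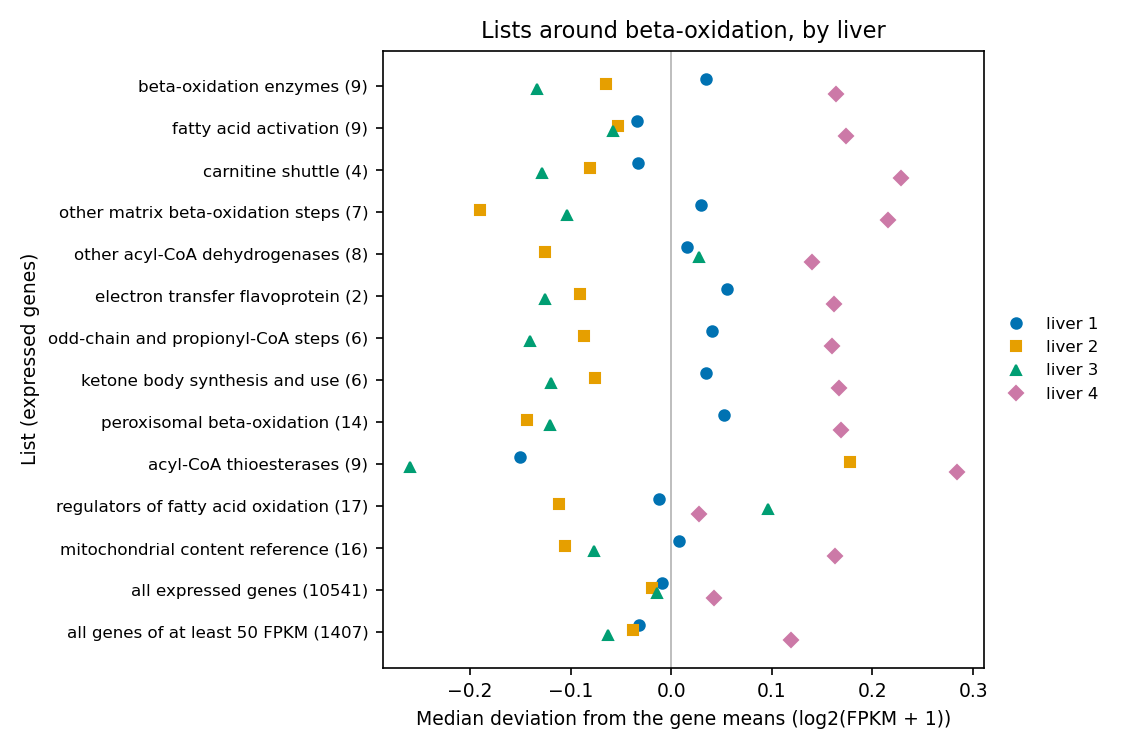
Median deviation from the gene means (horizontal axis, log2(FPKM + 1)) in livers 1 to 4 for the 9 enzymes, 11 lists of neighbouring functions and both backgrounds (rows, with the number of expressed genes). Liver 4 lies at the right for most lists, and in the regulators liver 3 lies farther right than liver 4.

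These are whole livers, in which fewer cells of a type and less RNA per cell cannot be told apart. The summed level of 10 hepatocyte markers was 26896, 24618, 23400 and 31377 FPKM in livers 1 to 4, highest in liver 4. Within it Alb was listed at 0 in all 4 livers and Serpina1c at 0 in livers 3 and 4. Over the 8 markers above 0 in every liver, a selection made after seeing the data, the sums were 25207.0, 23027.0, 23400 and 31377 FPKM, so that liver 2 rather than liver 3 was lowest. Of these 8 markers, Apob and Ttr were lowest in liver 3, and Cps1 and Hnf4a were highest there. Tat was lowest in liver 4 (335 FPKM) and highest in liver 1 (780 FPKM). In the full list 5 of the 9 expressed markers were highest in liver 4. The shares there were 33.3% of expressed genes and 53.0% of genes of at least 50 FPKM. The 8 macrophage markers summed to 203 to 288 FPKM, also lowest in liver 3 and highest in liver 4, the 8 stellate cell markers to 199 to 307 FPKM and the 7 sinusoidal endothelial markers to 49.0 to 66.5 FPKM, both highest in liver 2. Red cell genes summed to 427 to 1076 FPKM, lowest in liver 3 and highest in liver 1. This sum rested mostly on rows of Hba-a1, each with that pattern. Alas2 went the other way, highest in liver 3 (64.0 FPKM) and lowest in liver 2 (43.8 FPKM). Adipocyte markers summed to at most 0.506 FPKM (Lep, Plin1 and Ucp1 listed at 0 in all 4 livers) and skeletal muscle markers to at most 0.271 FPKM. As Alb is also listed at 0, a listed 0 in this table cannot be read as low expression. The part of cell composition in the differences between livers was not tested.

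Finally, expressed genes outside the 9 were ranked by how near their deviations lay to the median deviations of the members over the 4 livers. Among the 6529 genes whose mean reached 5 FPKM, the nearest were Prdx2, Lima1, Ankrd27, Cgnl1 and Dync1h1, at a root mean square difference between 0.00832 and 0.0142 on the log2 scale. Prdx2, a cytosolic peroxidase, had 155, 146, 138 and 169 FPKM in livers 1 to 4. With 4 livers many genes share such a pattern: 290 genes (4.44%) lay within 0.05 of it.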

How the data were processed

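The deposited table gives FPKM values for 4 mouse liver libraries, made by the authors from poly(A)-enriched RNA per the labels' protocols. Its header names no unit, and FPKM was taken from the values and the form of the identifiers. Per the submitters' processing notes, FastQC 0.10.1, Trim Galore 0.6.3, cutadapt, STAR 2.7.6a, Cufflinks 2.2.1 and mm10 were used; settings, annotation and strand are not given in the sources used here.

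Deposited starts were raised by 1, which matched RefSeq GRCm38.p6 in 52.0% of 22565 symbols against 3.00% as deposited. Depth was estimated from low values in GENCODE vM21 genes with 1 transcript over 800 bases. FPKM times transcript length less 200 bases was kept where this product lay between 25 and 75. The median of these products was taken as the value of a single fragment. Lengths less 100 or 300 bases gave 18.2 to 21.1 M with the same window. That window bounds each of these estimates, so their closeness does not test the depth. Fragments per member used the longest coding transcript. Analysis used log2(FPKM + 1) and genes whose mean reached 1 FPKM (Python 3.11.15, numpy 2.4.6, pandas 2.3.3). Only Dixon's ratio and the median deviation of a list were tried on simulated data. Promoter windows matched all 9 members.

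The members and lists were chosen with earlier results of these data known. Named genes are the members, the 3 most abundant of each list, fixed partners (Acaa2, Echs1, Etfa, Etfb, Cpt1a, Slc25a20, Ppara) and 5 genes by likeness; some genes that this rule names are not reported here. Alternatives were pseudocounts of 0.1 and 5, minimum means of 0.1 and 5 FPKM, 2 rescalings and leaving out each liver.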

Additional observations from a re-analysis of the deposited data

How the results depend on the processing

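The order of the 9 members by mean was the same under both rescalings and without each liver in turn, and their median level was between 130.3 and 145 FPKM when a liver was left out. The median SD of the members was 0.13 as deposited and 0.0942 with each liver rescaled to the same sum, and ranged from 0.0849 to 0.16 when a liver was left out, lowest without liver 4. The median deviation of the members in liver 1 (0.04) ranged from -0.0224 to 0.0790 when another liver was left out and changed sign without liver 3, as did its difference from all expressed genes (0.04, from -0.0106 without liver 3 to 0.0754 without liver 4). The cause was not tested. In livers 2, 3 and 4 the median kept its direction under every alternative run, but in liver 2 it was -0.0076 without liver 4 and -0.111 without liver 3, against -0.06 with all livers, and in liver 4 it was lowest, at 0.07, with the sum rescaled. The ratio of Hadha to Hadhb was 1.46 to 1.54 when a liver was left out. Between 10 and 11 of the 11 lists lay above expressed genes in liver 4 under the alternatives run; the count without liver 4 has no value. No paired analysis was possible because the samples form a single group. The number of livers limits every spread given here. Counting errors below 2% for the members hold only if the rough depth estimate is right, which was not tested.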
